A study of Canis lupus familiaris with 36 samples.

Results

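The 34 canine oral squamous cell carcinomas of this series were split by their PD-L1 transcript level, and the 17 tumors with the highest level were compared with the 17 tumors with the lowest. The panel carried a pair of probes for PD-L1, listed as CD274 and PD-L1, and tumors were selected on the mean of their log2 values. The RefSeq table for the dog assembly UU_Cfam_GSD_1.0 lists PD-L1 as a synonym of CD274, so both probes are of 1 gene. The 34 tumors are those of 36 samples in all, and the other 2 are normal oral mucosa, labelled as mucosal stroma and given here only as background values.

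PD-L1 is a surface ligand that tumor cells, macrophages and dendritic cells can carry, and it lowers the activity of T cells through the receptor PD-1. Interferon gamma, which T cells and NK cells release when they are activated, is the best known inducer of PD-L1, and inflammatory signals such as TNF can raise it as well. PD-L1 transcript in a tumor can therefore be found beside cytotoxic lymphocytes, and also beside myeloid inflammation without them. The comparison asks which immune genes differed between tumors with more and with less of the PD-L1 transcript, and which differences were present at an equal level of the T cell gene CD3e.

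Every tumor arose spontaneously in a pet dog, and RNA came from archived tissue that was either frozen or formalin fixed and embedded in paraffin. The samples came from 33 dogs, 1 of which gave both tumor and mucosa, and which samples share a dog is not labelled. The tumors outnumber the dogs, so at least 1 dog gave more than 1 tumor. Breed, age, treatment and tissue preservation are not labelled per sample. The extraction text also names frozen lymph node tumor tissue without saying which samples these were, and the part of tissue source and preservation in the results was not tested.

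RNA was measured with NanoString nCounter, which counts color-coded probes hybridized to each transcript without amplification. The deposited values are counts scaled to 4 housekeeping genes, and every value below is the log2 of such a normalized value unless stated otherwise. Recovered total counts per tumor ranged from 48534 to 665587 in PD-L1-high tumors (median 258180) and from 27092 to 366679 in PD-L1-low tumors (median 188248), with 2 tumors under 100000 counts in each group. CXCL2 and IL8 together made up a median of 33.8% of the panel signal in PD-L1-high tumors and 16.0% in PD-L1-low tumors, so this total moves with genes of the comparison. The ratio of 2 positive controls separated 7 tumors (2.59 to 2.80) from the other 27 (1.54 to 1.77), which are treated here as a smaller and a larger batch. Of the housekeeping genes, ALAS1 had a mean of 13.07 ± 0.54 (SD, n = 17) in PD-L1-high and 12.77 ± 0.60 (SD, n = 17) in PD-L1-low tumors, and GUSB of 11.15 ± 0.38 and 11.43 ± 0.39. The smaller batch held 4 PD-L1-high and 3 PD-L1-low tumors. Both mucosa samples, at ratios of 2.70 and 2.85, also fall in the smaller batch, so they differ in batch from most tumors. The tumors of patients 33 and 34, both PD-L1-high, were the closest pair on the panel, with a mean absolute log2 difference of 0.19 against 0.51 for the next pair, and they gave the highest PD-L1-high value in 20 of the 42 genes compared.

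The values that chose the groups are given as a description. The mean of both probes ran from 8.41 to 10.35 in PD-L1-high tumors, with a median of 8.93, and from 6.89 to 8.39 in PD-L1-low tumors, with a median of 7.71. At the boundary, the tumor of patient 4 had a mean of 8.41 and was placed in the high group, and that of patient 2 had a mean of 8.39 and was placed in the low group. The tumors near the boundary thus differed little, and the PD-L1 level was a continuum without a gap at this point.

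CD274 values lay between 9.62 and 11.52 in PD-L1-high tumors (median 10.21) and between 7.72 and 9.58 in PD-L1-low tumors (median 8.76). The probe listed as PD-L1 gave lower values, from 7.17 to 9.58 in PD-L1-high tumors (median 7.68) and from 6.02 to 7.28 in PD-L1-low tumors (median 6.76). The groups were apart for the CD274 probe and overlapped slightly for the PD-L1 probe. CD274 exceeded PD-L1 by a median of 2.36, with a range of 0.65 to 2.83, and the probes correlated with a Pearson r of 0.836 over the 34 tumors. Neither probe was below the negative-control background in any tumor. A split on CD274 alone gave the same groups, whereas a split on the PD-L1 probe alone kept 15 of the 17 PD-L1-high tumors. In the latter split the tumors of patients 19 and 21, with 88279 and 27092 total counts, replaced those of patients 4 and 33. Every tumor under 100000 counts was then in the high group, and that of patient 21 had 21 counts for the PD-L1 probe.

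**Figure D1:**
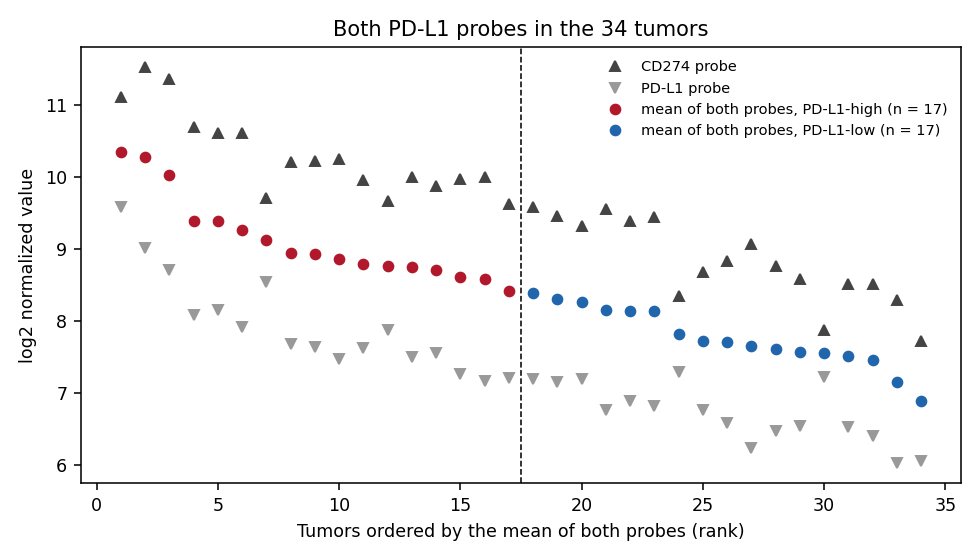
Log2 normalized value of the CD274 probe, the PD-L1 probe and their mean (vertical axis) in each of the 34 tumors, ordered by the mean (horizontal axis). The dashed line separates the 17 PD-L1-high from the 17 PD-L1-low tumors, and the 3 tumors on the left have means above 10, while means fall without a gap across the line.

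The 3 tumors at the top stood apart from the rest, with means of 10.35 for patient 20, 10.27 for patient 22 and 10.03 for patient 23, against 9.39 for the next. Their immune genes were not alike. CD3e, the epsilon chain of the T cell receptor complex, was 8.97, 11.83 and 10.69 in these tumors in the same order. IL8, a neutrophil chemokine, was 17.37, 13.18 and 16.94. The tumor of patient 20 thus had little CD3e and much IL8, and that of patient 22 had more CD3e and less IL8. In mucosa, CD274 was 7.48 and 9.80 in the samples of patients 8 and 9, so for this probe 1 mucosa sample lay within the PD-L1-high range and the other below the lowest tumor. The PD-L1 probe gave 5.85 and 7.13 in the same order, below the lowest tumor and within the PD-L1-low range.

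Among the 42 other immune genes, 3 were higher in PD-L1-high tumors at an adjusted p below 0.05 by limma, with Benjamini-Hochberg adjustment over the 42 genes, and 0 were lower. These 3 genes are 7.14% of the genes compared. They were CXCL2, TNF and GZMB. CXCL2 is a chemokine that attracts neutrophils, and its row name matched no dog symbol or synonym in the RefSeq table. TNF is a cytokine of inflammation made by macrophages and T cells. GZMB is the granzyme that cytotoxic T cells and NK cells deliver into target cells. Without adjustment, 7 genes had a p below 0.05. Most genes had a higher mean in PD-L1-high tumors (33 of 42), and the median difference over all 42 was 0.27. Scaling each tumor to an equal median over the 42 genes, in place of the housekeeping genes, brought this median to -0.03, so differences of the genes given in full are also stated relative to the median of all genes. In bulk tissue, fewer cells of a type and less RNA per cell cannot be told apart.

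CXCL2 showed the largest difference. Its values ran from 9.70 to 16.09 in PD-L1-high tumors (median 14.06) and from 8.98 to 14.77 in PD-L1-low tumors (median 11.92). The groups overlapped, but 7 PD-L1-high tumors lay above every PD-L1-low tumor, and 13 of 17 PD-L1-high against 4 of 17 PD-L1-low tumors were above the median of all tumors. The difference was 2.13 (SE 0.54, 95% interval 1.04 to 3.22, limma adjusted p = 0.0131), a 4.38-fold higher level, or 1.86 relative to the median of all genes. Mucosa values were 7.64 and 8.30, below every tumor. CXCL2 was called when any single tumor was left out, with differences of 1.95 to 2.40, and also under equal-median scaling (1.83, limma adjusted p = 0.0414). It was not called in the split on the PD-L1 probe alone (1.54, limma adjusted p = 0.14). The difference was 2.50 in the larger batch (limma adjusted p = 0.00396) and 0.97 in the smaller batch, where the lowest PD-L1-high tumor, at 9.70, lay below all 3 PD-L1-low tumors.

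TNF ranged from 7.01 to 10.24 in PD-L1-high tumors (median 8.18) and from 6.37 to 9.28 in PD-L1-low tumors (median 7.31). Again 13 PD-L1-high and 4 PD-L1-low tumors were above the median of all tumors, and 3 PD-L1-high tumors lay above every PD-L1-low tumor. These 3 were the tumors of patients 20, 33 and 34, at 10.24, 9.78 and 9.89. The difference was 0.93 (SE 0.29, 95% interval 0.34 to 1.51, limma adjusted p = 0.0379), or 0.66 relative to the median of all genes. It was 1.20 in the larger batch (limma adjusted p = 0.0104) and -0.03 in the smaller batch, where the highest TNF value of the PD-L1-low group, 9.28, was found. TNF was not called under equal-median scaling (0.62, limma adjusted p = 0.171) or with the total count of a tumor as a covariate (0.85, limma adjusted p = 0.072), and it was not called when any 1 of 18 tumors was left out, with the highest limma adjusted p at 0.0797.

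GZMB ranged from 7.80 to 11.24 in PD-L1-high tumors (median 9.02) and from 5.89 to 9.84 in PD-L1-low tumors (median 8.56). Of the PD-L1-high tumors 6 lay above every PD-L1-low tumor, and 5 PD-L1-low tumors lay below every PD-L1-high tumor. The difference was 1.13 (SE 0.35, 95% interval 0.42 to 1.85, limma adjusted p = 0.0379), or 0.86 relative to the median of all genes. It was 1.34 in the larger batch (limma adjusted p = 0.0173) and 0.31 in the smaller batch. GZMB was not called under equal-median scaling (0.83, limma adjusted p = 0.0619), with the total count as a covariate (1.07, limma adjusted p = 0.072) or when any 1 of 19 tumors was left out, with the highest limma adjusted p at 0.0805. Counting patients 33 and 34 as 1 sample left CXCL2 as the only called gene, with TNF at 0.84 and GZMB at 1.08 (limma adjusted p = 0.0624 for both).

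**Figure D2:**
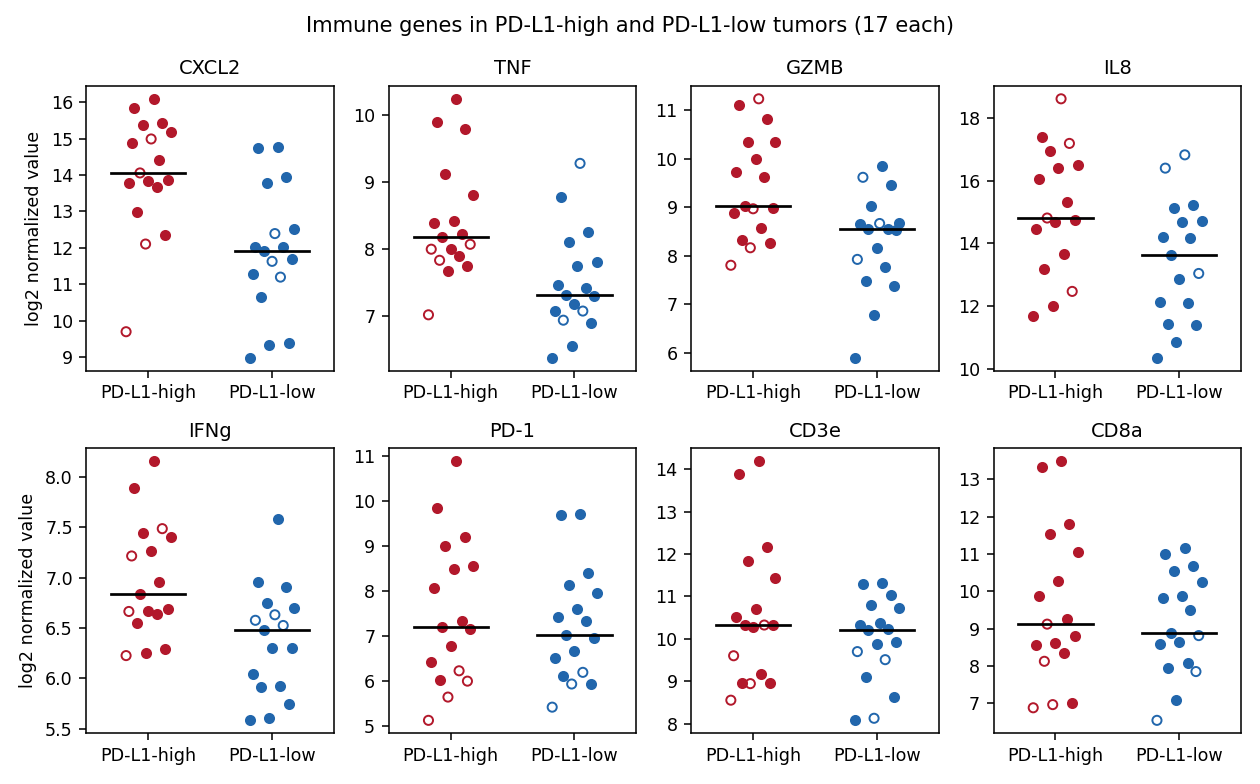
Log2 normalized values (vertical axes, each with its own range that does not start at 0) of 8 genes in 17 PD-L1-high (red) and 17 PD-L1-low (blue) tumors. Each point is a tumor, filled for the larger and open for the smaller batch, and the black line is the group's median; the groups overlap in every gene, with medians of 14.06 against 11.92 for CXCL2 and 7.20 against 7.01 for PD-1.

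The same 3 genes had the closest relation to the PD-L1 level itself across the 34 tumors, among 42 relations computed. The groups were formed from this level in the same tumors, so these relations describe the same values again and are no separate support. For CXCL2, Pearson's r was 0.668 (permutation test, two-sided, p = 3e-05, adjusted p = 0.00126) and Spearman's rho was 0.723 (permutation p = 1e-05, the smallest that 100000 resamples can give, adjusted p = 0.00042). TNF had an r of 0.609 (permutation p = 0.00018, adjusted p = 0.00378) and a rho of 0.644 (permutation p = 8e-05, adjusted p = 0.00168). GZMB had an r of 0.571 and a rho of 0.578 (permutation p = 0.00042 and adjusted p = 0.00588 for each). All 3 relations were present without the tumors of patients 20 and 22, which are farthest from the median PD-L1 level, at r of 0.698 for CXCL2, 0.504 for TNF and 0.481 for GZMB. In the larger batch, r was 0.724, 0.662 and 0.625 for CXCL2, TNF and GZMB, and in the 7 tumors of the smaller batch it was 0.306, 0.186 and 0.224.

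IL8 and IFNg were also related to the PD-L1 level, though neither was called between the groups. For IL8, r was 0.472 (permutation p = 0.00518, adjusted p = 0.0435) and rho was 0.491 (permutation p = 0.00347, adjusted p = 0.033). For IFNg, which encodes interferon gamma, r was 0.470 (permutation p = 0.00487, adjusted p = 0.0435) and rho was 0.484 (permutation p = 0.00393, adjusted p = 0.033). Without patients 20 and 22, r was 0.502 for IL8 and 0.480 for IFNg. Within batches, r for IL8 was 0.577 in the larger and 0.0984 in the smaller batch, and r for IFNg was 0.462 and 0.643.

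**Figure D3:**
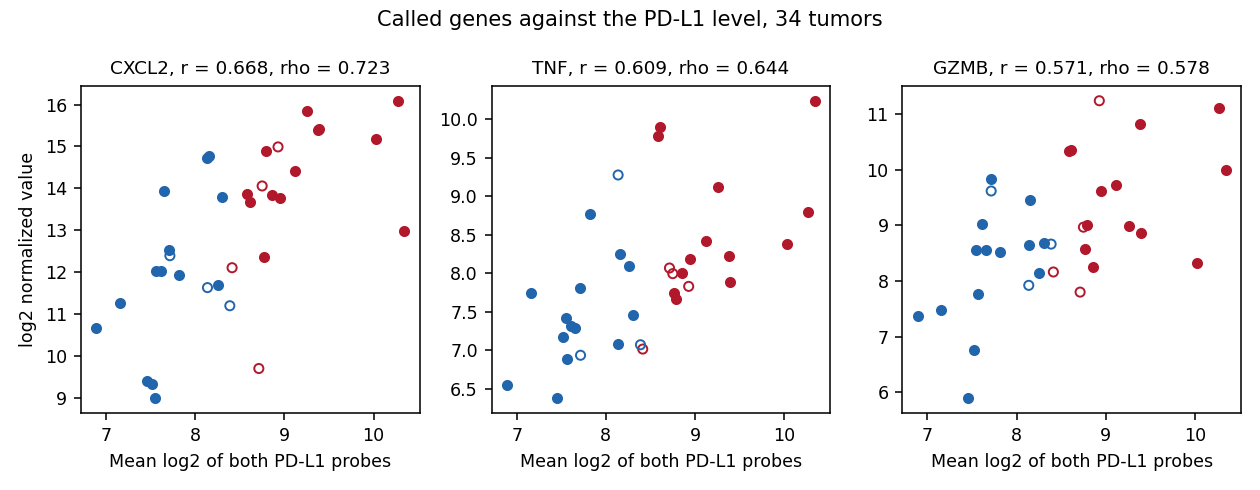
Log2 normalized values of CXCL2, TNF and GZMB (vertical axes) against the mean log2 value of both PD-L1 probes (horizontal axis) in 34 tumors, red for PD-L1-high and blue for PD-L1-low, filled for the larger and open for the smaller batch. All 3 genes increase with PD-L1 over the filled points (r of 0.724, 0.662 and 0.625), and the 7 open points follow less closely (0.306, 0.186 and 0.224).

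Among the 2 partners of the PD-1 pathway on the panel, the receptor PD-1 and the second ligand PDCD1LG2, 0 were called. PD-1 ranged from 5.12 to 10.87 in PD-L1-high tumors (median 7.20) and from 5.42 to 9.70 in PD-L1-low tumors (median 7.01). The groups overlapped almost wholly, with 9 and 8 tumors above the median of all tumors. The difference was 0.29 (SE 0.47, 95% interval -0.66 to 1.24, limma adjusted p = 0.727), or 0.02 relative to the median of all genes. The interval still allows a more than 2-fold difference. It was 0.54 in the larger batch and -0.10 in the smaller batch, and -0.01 under equal-median scaling. PD-1 was below background in 1 PD-L1-high tumor and in both mucosa samples, at 3.44 and 3.57.

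PDCD1LG2 encodes PD-L2, and its gene lies next to CD274 in the dog assembly with 0 protein-coding genes between them. It ranged from 6.95 to 10.22 in PD-L1-high tumors (median 8.94) and from 6.97 to 10.37 in PD-L1-low tumors (median 8.56). The ranges were almost the same, and 9 PD-L1-high and 8 PD-L1-low tumors were above the median of all tumors. The difference was 0.21 (SE 0.33, 95% interval -0.46 to 0.89, limma adjusted p = 0.727), or -0.06 relative to the median of all genes, and -0.09 under equal-median scaling.

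Neither of the other inhibitory receptors was called. CTLA4, which competes with CD28 for its ligands, ranged from 7.04 to 9.94 in PD-L1-high tumors (median 8.74) and from 6.13 to 9.90 in PD-L1-low tumors (median 8.44), with a difference of 0.61 (SE 0.33, 95% interval -0.06 to 1.29, limma adjusted p = 0.311), or 0.34 relative to the median of all genes. At the low end, 4 PD-L1-low tumors lay below every PD-L1-high tumor. LAG3, a receptor of activated and exhausted T cells, ranged from 7.53 to 9.86 (median 8.91) and from 6.93 to 10.17 (median 8.48). Its groups overlapped almost wholly, and the difference was 0.19 (SE 0.27, 95% interval -0.35 to 0.74, limma adjusted p = 0.727), or -0.08 relative to the median of all genes, and -0.11 under equal-median scaling.

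The 4 T cell genes, CD3e, CD8a, CD27 and CD28, all had higher means in PD-L1-high tumors, with 0 called and a median difference of 0.58. CD3e ranged from 8.55 to 14.19 in PD-L1-high tumors (median 10.32) and from 8.08 to 11.32 in PD-L1-low tumors (median 10.20). The medians were close, and 5 PD-L1-high tumors lay above every PD-L1-low tumor, among them patients 33 and 34 at 13.89 and 14.19. The difference was 0.64 (SE 0.45, 95% interval -0.26 to 1.55, limma adjusted p = 0.456), or 0.37 relative to the median of all genes, and 0.43 with patients 33 and 34 counted as 1 sample.

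CD8a, a chain of the coreceptor of cytotoxic T cells, ranged from 6.88 to 13.48 in PD-L1-high tumors (median 9.12) and from 6.54 to 11.17 in PD-L1-low tumors (median 8.87). As for CD3e, the upper end of the PD-L1-high group was set by patients 33 and 34, at 13.48 and 13.32. The difference was 0.46 (SE 0.56, 95% interval -0.68 to 1.60, limma adjusted p = 0.677), or 0.19 relative to the median of all genes. For the costimulatory receptors CD27 and CD28 it was 0.68 and 0.52 (limma adjusted p = 0.388 and 0.456). When tumors were both scaled to equal medians and split again, an alternative chosen after seeing the data that shared 14 of the 17 PD-L1-high tumors, all 4 genes had lower means in PD-L1-high tumors, from -0.91 for CD8a to -0.26 for CD27 and CD28.

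GZMB was the only called member of the 3 cytolytic genes, which had a median difference of 0.92, against 7.14% called and a median of 0.27 over all genes compared. PRF1 encodes perforin, the pore protein through which granzymes enter cells. It ranged from 5.72 to 9.62 in PD-L1-high tumors (median 7.80) and from 4.65 to 8.41 in PD-L1-low tumors (median 7.08), and 7 PD-L1-high tumors lay above every PD-L1-low tumor. The difference in PRF1 was 0.92 (SE 0.37, 95% interval 0.16 to 1.68, limma adjusted p = 0.136), or 0.65 relative to the median of all genes. GZMA, the other granzyme, differed by 0.79 (95% interval -0.05 to 1.64, limma adjusted p = 0.305), with group medians of 7.76 and 7.15.

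Of the 5 genes of interferon and its response, 0 were called, and their median difference was 0.60. IFNg had low values with little spread, from 6.23 to 8.15 in PD-L1-high tumors (median 6.84) and from 5.58 to 7.59 in PD-L1-low tumors (median 6.48). The top of both ranges came from tumors under 100000 counts. These were patient 36 at 8.15 and patient 26 at 7.89 in the high group, and patient 21 at 7.59 in the low group. At the low end, 6 PD-L1-low tumors lay below every PD-L1-high tumor, and 12 PD-L1-high against 5 PD-L1-low tumors were above the median of all tumors. The difference was 0.60 (SE 0.22, 95% interval 0.16 to 1.04, limma adjusted p = 0.0973), or 0.33 relative to the median of all genes, with 0.66 in the larger and 0.32 in the smaller batch. IFNg was called in the split on the PD-L1 probe alone (0.75, limma adjusted p = 0.0251), by an unequal-variance t-test and a permutation test per gene (adjusted p = 0.0379 and 0.0384), and with the total count of a tumor as a covariate (0.76, limma adjusted p = 0.0228). The split on the PD-L1 probe alone placed every tumor under 100000 counts in the high group. Under equal-median scaling the difference was 0.29 (limma adjusted p = 0.534), and IFNg was called in 8 of 24 alternatives, not counting those that leave out 1 tumor in turn.

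TNFSF10, the death ligand TRAIL and a gene that interferon can induce, differed by 0.61 (95% interval -0.04 to 1.25, limma adjusted p = 0.305). IL 18, a cytokine that adds to interferon gamma release, differed by 0.71 (95% interval -0.17 to 1.60, limma adjusted p = 0.385). This gene went opposite ways in the batches, at 1.24 in the larger batch (limma adjusted p = 0.0463) and -1.45 in the smaller. MX1, an antiviral gene of the interferon response, and IL12 were the other members and also did not pass the test. Among the 3 T cell cytokines IFNg, IL2 and TNF, 1 was called, TNF, where 7.14% of all genes compared were called.

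IL8, like CXCL2 a chemokine that recruits neutrophils, ranged from 11.69 to 18.60 in PD-L1-high tumors (median 14.81) and from 10.36 to 16.82 in PD-L1-low tumors (median 13.63). The ranges were wide and overlapped, with 4 PD-L1-high tumors above every PD-L1-low tumor and 4 PD-L1-low tumors below every PD-L1-high tumor. The lowest IL8 of the PD-L1-high group stood in patients 33 and 34, at 11.69 and 12.00, the tumors with the most CD3e. Without a covariate the difference was 1.58 (SE 0.63, 95% interval 0.32 to 2.85, limma adjusted p = 0.132), or 1.31 relative to the median of all genes, and it was 1.78 in the larger and 0.35 in the smaller batch. The 7 genes of myeloid and stromal inflammation (CXCL2, IL8, IL6, CCL2, TNF, KDM6B and SELP) thus held 2 called genes, CXCL2 and TNF, and their median difference was 0.34, against 7.14% called and a median of 0.27 over all genes compared. TNF is counted both here and among the T cell cytokines, and the lists were chosen with earlier results of these data known. The monocyte chemokine CCL2, the cytokine IL6, the histone demethylase KDM6B and the adhesion molecule SELP of platelets and endothelium had differences from -0.15 to 0.34, none of them called.

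CD70, the ligand of CD27, had the most negative difference of the panel. Its values ran from 6.54 to 9.70 in PD-L1-high tumors (median 7.81) and from 7.07 to 10.38 in PD-L1-low tumors (median 8.55). More PD-L1-low than PD-L1-high tumors, 11 against 6, were above the median of all tumors. The difference was -0.60 (SE 0.34, 95% interval -1.29 to 0.10, limma adjusted p = 0.339), or -0.86 relative to the median of all genes. The 8 costimulatory receptors and ligands, CD70 among them with CD27, CD28, ICOS, ICOSLG, CD40, OX40 and TNFSF14, held 0 called genes, 5 with higher and 3 with lower means in PD-L1-high tumors.

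The transcription factors of helper T cell lineages, TBX, GATA3 and BCL6, held 0 called genes and had a median difference of 0.12. The row named TBX, which matched no dog symbol, had the largest of the 3 at 0.69 (95% interval 0.01 to 1.38, limma adjusted p = 0.288). The regulatory genes FOXP3, IL10 and TGFb had a median difference of 0.01 with 0 called. IL10, a cytokine that restrains inflammation, ranged from 7.56 to 9.40 in PD-L1-high tumors (median 8.16) and from 7.28 to 9.67 in PD-L1-low tumors (median 8.59). Its difference was -0.23 (95% interval -0.71 to 0.25, limma adjusted p = 0.666), or -0.50 relative to the median of all genes, and -0.54 under equal-median scaling, where it was called lower (limma adjusted p = 0.0414). The markers of other cell types, NCR1 of NK cells, Pax5 of B cells and CLEC4C of plasmacytoid dendritic cells, had differences from -0.04 to 0.38 with 0 called. NCR1 was below background in 10 tumors, and Pax5 in 6 PD-L1-high and 1 PD-L1-low tumor.

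**Figure D4:**
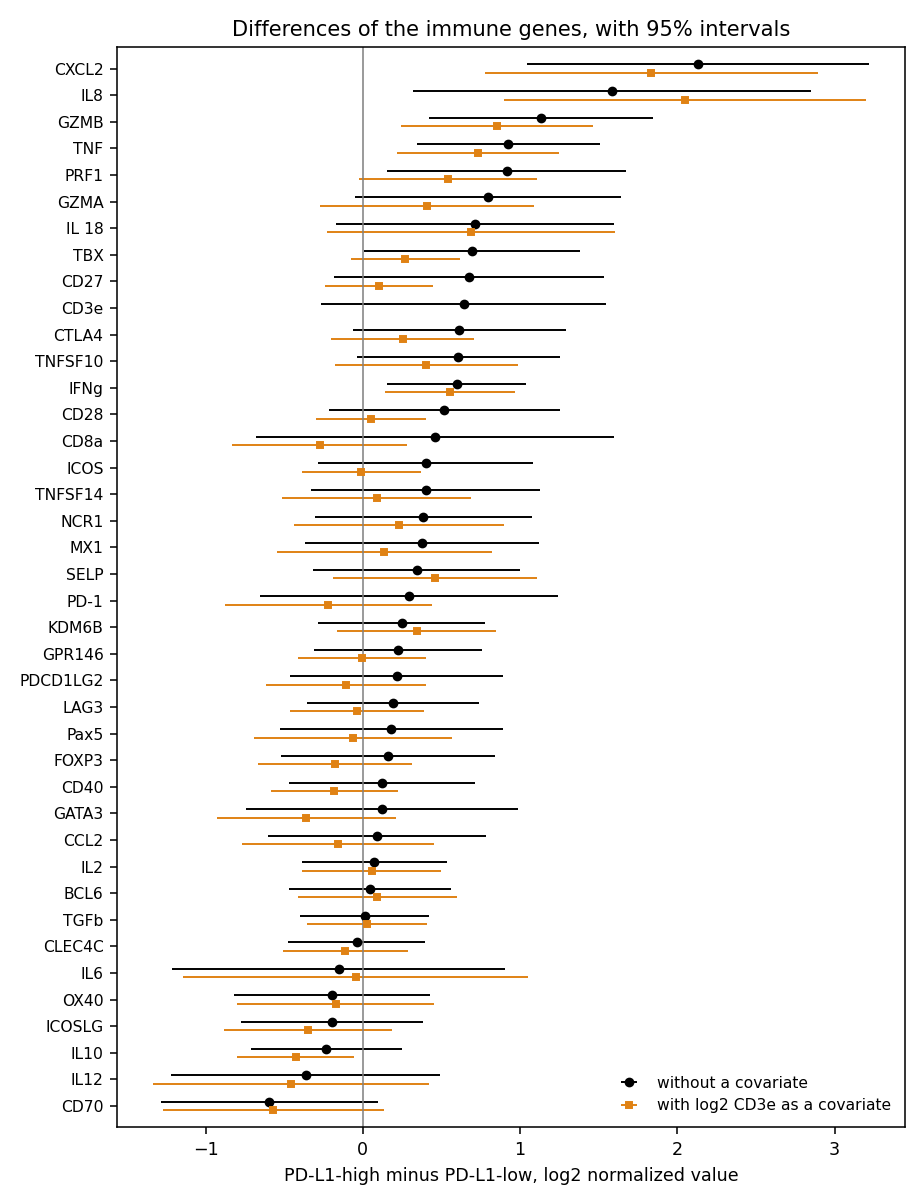
Difference in mean log2 normalized value between PD-L1-high and PD-L1-low tumors (horizontal axis) for the immune genes reported by name (vertical axis), without a covariate (black circles) and with log2 CD3e as a covariate (orange squares). Bars are 95% intervals from limma that are not adjusted for the number of genes; CXCL2 (2.13 and 1.84) and IL8 (1.58 and 2.05) lie farthest to the right, and the squares of PD-1, PDCD1LG2 and CD8a lie left of 0.

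At an equal level of CD3e, 2 of 41 genes were called, which is 4.88%. Both were rows named for neutrophil chemokines, IL8 and CXCL2, of which CXCL2 matched no dog symbol. They were higher in PD-L1-high tumors, and 0 genes were lower. The median difference over the 41 genes was 0.02 in this fit, with 21 genes higher and 20 lower in PD-L1-high tumors. Without adjustment, 7 genes had a p below 0.05.

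IL8 differed by 2.05 given CD3e (SE 0.57, 95% interval 0.90 to 3.20, limma adjusted p = 0.0245), a larger estimate than without the covariate. CXCL2 differed by 1.84 (SE 0.52, 95% interval 0.78 to 2.89, limma adjusted p = 0.0245), somewhat less than without it. In the larger batch alone the differences were 2.23 for IL8 and 2.27 for CXCL2 (limma adjusted p = 0.0193 for both). IL8 was not called without patient 6, 16 or 24, with the highest limma adjusted p at 0.0618, and CXCL2 was not called without patient 10, 16 or 24, with the highest at 0.0644. Both were called in 19 of 23 alternatives counted the same way. Among these 19, the split on CD274 alone repeats the main fit, and the fit without SDHA is counted again with the same groups. Both were lost in the split on the PD-L1 probe alone, at 1.24 for IL8 and 1.35 for CXCL2 (limma adjusted p = 0.425 and 0.194), and with the total count as a covariate, at 1.87 and 1.47 (limma adjusted p = 0.057 and 0.0642). They were also lost under equal-median scaling, at 1.86 and 1.76 (limma adjusted p = 0.0522 for both), and without the 4 tumors under 100000 counts, at 1.81 and 1.74 (limma adjusted p = 0.0616 and 0.0545), the latter alternative chosen after seeing the data.

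TNF and GZMB, called without the covariate, differed by 0.73 and 0.85 given CD3e (limma adjusted p = 0.0776 for both). Their 95% intervals of 0.22 to 1.25 and 0.24 to 1.47 lay above 0 before adjustment for the number of genes. TNF was called given CD3e without patient 3, 4 or 19, and GZMB without patient 7. IFNg was nearly as far apart given CD3e as without it, at 0.55 (95% interval 0.14 to 0.97, limma adjusted p = 0.0837), and was called without patient 21. PRF1, in contrast, differed by 0.54 given CD3e (95% interval -0.02 to 1.10, limma adjusted p = 0.307).

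The PD-1 pathway partners had negative differences given CD3e, -0.22 for PD-1 (95% interval -0.88 to 0.44, limma adjusted p = 0.829) and -0.11 for PDCD1LG2 (95% interval -0.62 to 0.40, limma adjusted p = 0.908). These signs were opposite to those without the covariate, and neither interval excluded 0. CTLA4 differed by 0.25 and TBX by 0.27, both with intervals that include 0 (limma adjusted p = 0.572 and 0.457). IL10 differed by -0.43, with a p below 0.05 only before adjustment (95% interval -0.80 to -0.06, limma adjusted p = 0.176). The other T cell genes CD8a, CD27 and CD28, of which 0 were called, had a median difference of 0.05 once CD3e was in the fit.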

How the data were processed

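The authors counted a custom canine NanoString panel of 44 immune and 4 housekeeping genes and deposited normalized signal values, for which the geometric mean of the 4 housekeeping genes is equal in every sample. Per gene and sample, 1728 of 1728 deposited values were whole counts times a factor of the sample (tolerance 0.01 of a count beside rounding), which gave the total counts and the background, the mean plus 2 SD of the negative controls. Counts were used for depth and background only. Positive and negative controls stayed out of the comparisons.

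Values were put on the log2 scale with no pseudocount. PD-L1-high and PD-L1-low tumors were compared by limma 3.58.1 in R 4.3.3 with empirical Bayes moderation and Benjamini-Hochberg adjustment, over 42 genes without a covariate and over 41 with log2 CD3e as a covariate; a gene was called at an adjusted p below 0.05. All 34 tumors entered each fit, and the code was tested on simulated data. Intervals are at 95% and cover the spread between these samples, for which the labels do not state separate dogs, so that p-values may in part measure technical spread. The number of tumors and the counts behind low values limit the precision, and intervals of counting error are not given for scaled values.

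Members and gene lists were chosen with earlier results of these data known. Full values were given for PD-1, PDCD1LG2, CTLA4, LAG3, CD3e, CD8a, IFNg and each gene called with or without the CD3e covariate, by a rule set with the lists. PRF1, CD70 and IL10 were added after their values were seen. The lists were PD-1 pathway partners, inhibitory receptors, T cell genes, cytolytic genes, costimulatory receptors and ligands, interferon and interferon response, T cell cytokines, helper lineage transcription factors, regulatory genes, myeloid and stromal inflammation, and markers of NK, B and plasmacytoid dendritic cells. Of 48 panel names, 40 matched a RefSeq symbol or synonym. CXCL2, CLEC4C, IL 18, IL12, OX40, TBX and TGFb were among those that did not. Some panel genes are not reported by name, though they stayed in the tests and counts. Alternatives covered the test, the split, the scaling, pseudocounts, low values, depth, batch and the tumors of patients 33 and 34, and left out each tumor in turn. Some of them repeat another fit, so counts of alternatives include repeats. Permutation tests used 100000 resamples.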

Additional observations from a re-analysis of the deposited data

How the results depend on the processing

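The 3 genes called without a covariate became 1 in the split on the PD-L1 probe alone (IFNg), 1 with patients 33 and 34 averaged or either of them omitted (CXCL2), 5 for the 11 highest against the 11 lowest tumors (IL8 and TBX added) and 0 in the smaller batch, which held 7 tumors. Leaving out each tumor in turn gave 1 to 4 genes; GZMB was lost without patient 1, 2, 3, 10, 11, 12, 14, 15, 17, 18, 20, 22, 25, 26, 27, 28, 30, 33 or 34, and TNF without patient 2, 7, 10, 11, 12, 14, 15, 17, 18, 20, 22, 25, 26, 27, 30, 33, 34 or 35, while IFNg was called without patient 21. The 2 genes called given CD3e became 4 with the PD-L1 level as a continuous term, 1 in the split on the PD-L1 probe alone (IFNg, with CXCL2 and IL8 lost), 4 for the 11 highest against the 11 lowest, 0 under equal medians, 5 without SDHA among the housekeeping genes, 1 with the total count as a covariate (again IFNg alone) and 4 with CD8a as the covariate. Among alternatives chosen after seeing the data, they became 6 under equal medians with the groups chosen again and 0 without tumors under 100000 counts. Choosing the groups again without SDHA gave the same 17 PD-L1-high tumors, so its 5 genes repeat the fit above. With each tumor left out in turn, 0 to 3 genes were called. The split on the PD-L1 probe alone also differed in depth, with every tumor under 100000 counts in the high group. The cause of these changes was not tested.

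Signs turned for TNF (-0.034), PD-1 (-0.10), CD28 (-0.074) and IL 18 (-1.45) in the smaller batch, for IL 18 in the split on the PD-L1 probe alone (-0.17), for LAG3 (-0.11), PD-1 (-0.012) and PDCD1LG2 (-0.090) under equal medians, and for PD-1 (-0.49), PDCD1LG2 (-0.064), CD3e (-0.48), CD8a (-0.91), CD27 (-0.26) and CD28 (-0.26) under equal medians with the groups chosen again. Given CD3e, signs turned for PD-1 with the continuous term (0.013 per log2 unit of PD-L1), the PD-L1 probe alone (0.44), CD8a as the covariate (0.0097) and no tumor under 100000 counts (0.12), and for PDCD1LG2 with the continuous term (0.10 per log2 unit), the 11 highest against the 11 lowest (0.35) and CD8a as the covariate (0.037). Given CD3e they also turned for LAG3 in 6 of 23 alternatives, CD27 in 3 of 22, CD28 in 2 of 22 and IL 18 in 1 of 23. The test on recovered counts was not run, since too few low values per sample allowed a check of the counts. No paired analysis was possible because the groups were formed from measured values and the labels give no replicate numbers that they share. PD-1, TBX, GZMA, IL2, IL12, NCR1 and Pax5 were below background in 1 or more tumors, which limits their values. For PD-1, TBX and GZMA this was the tumor of patient 6. It had 423359 total counts and the highest background of the tumors, at 45.8 counts.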
